A study of Saccharomyces cerevisiae with 5 samples.

Results

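The genes described here encode the machinery that carries proteins into the endoplasmic reticulum (ER) of the yeast Saccharomyces cerevisiae, folds them there and ships them onward in vesicles. They were chosen by gene symbol: every SEC gene with a number, plus 19 further genes of ER entry and folding. This gave 55 of the 5583 genes named on the arrays, and all 55 were spotted on both array designs. Of these, 26 act in ER entry and folding, 27 in vesicle transport, and SEC53 and SEC59 stand apart. RNA recovered with zzYra1 was competed against RNA recovered with the zz tag alone, the control immunoprecipitate. Yra1 is an adaptor of nuclear mRNA export, and zz is an IgG-binding affinity tag. There were 5 two-channel cDNA hybridisations in 1 group, called arrays 1 to 5. By the labels, channel 2 carried the zzYra1 immunoprecipitate on arrays 1, 2 and 5, whereas arrays 3 and 4 had it in channel 1. The labels date arrays 4 and 5 to a single day. The sources used here do not give the strain, further genotype or growth conditions. Whether each array had its own culture is not stated, so a p-value reflects how these 5 arrays vary, and that variation may be technical.

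Secretory proteins begin with a signal sequence that the signal recognition particle (SRP) binds as it leaves the ribosome. The SRP receptor brings the ribosome to the Sec61 translocon, a protein-conducting pore in the ER membrane. Chaperones and disulfide isomerases fold the chain inside the ER, and coated vesicles take the product to the Golgi and on to the plasma membrane. In yeast the SEC genes were found as mutants that block secretion. All of these proteins are made from nuclear mRNAs, which leave the nucleus through export factors such as Yra1.

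Each deposited value is a log10 ratio of one channel over the other. It was converted to log2, the spots of a gene were averaged, and the median gene of the array was set to 0, so a value tells how far a gene lay from that median gene. The sources used here do not say which immunoprecipitate was the numerator. A sign therefore does not tell which immunoprecipitate held more of an RNA, and values carry the deposited sign unless stated otherwise. The arrays differed widely in how many genes had a value (19.8% to 97.6%) and in spread (standard deviation over genes 0.908 to 1.14 log2 units on 4 arrays and 2.51 on array 4). YRA1 itself was measured on array 3 alone, at 0.63. Spot intensities were not used here, so nothing can be said of signal over background. Precision is limited by there being 5 arrays.

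Secretory pathway genes were measured about as often as other genes on arrays 1, 2, 3 and 5, and more often on array 4. On array 4, 21 of the 55 had a value (38.2%), against 23.8% of other genes and 23.9% of all genes. On array 5, 12 of the 55 had a value (21.8%), against 19.8% of other genes and 19.8% of all genes. On array 3, 54 of the 55 were measured (98.2%), against 97.6% of other genes and 97.6% of all genes, and the missing member was SEC39, of an ER tethering complex. On array 1 the count was 23 (41.8%, against 44.4% of other genes and 44.3% of all genes), and on array 2 it was 25 (45.5%, against 51.1% of other genes and 51.1% of all genes). Counted over spots instead of genes, the share of members on array 1 was 4.97 percentage points above that of others. Over genes the difference was -2.56. No test was made of these shares, which describe the arrays. Every member had a value on at least 1 array. Values were present on all 5 arrays for 2 members, on 4 for 5, on 3 for 19, on 2 for 19 and on 1 for 10.

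**Figure D1:**
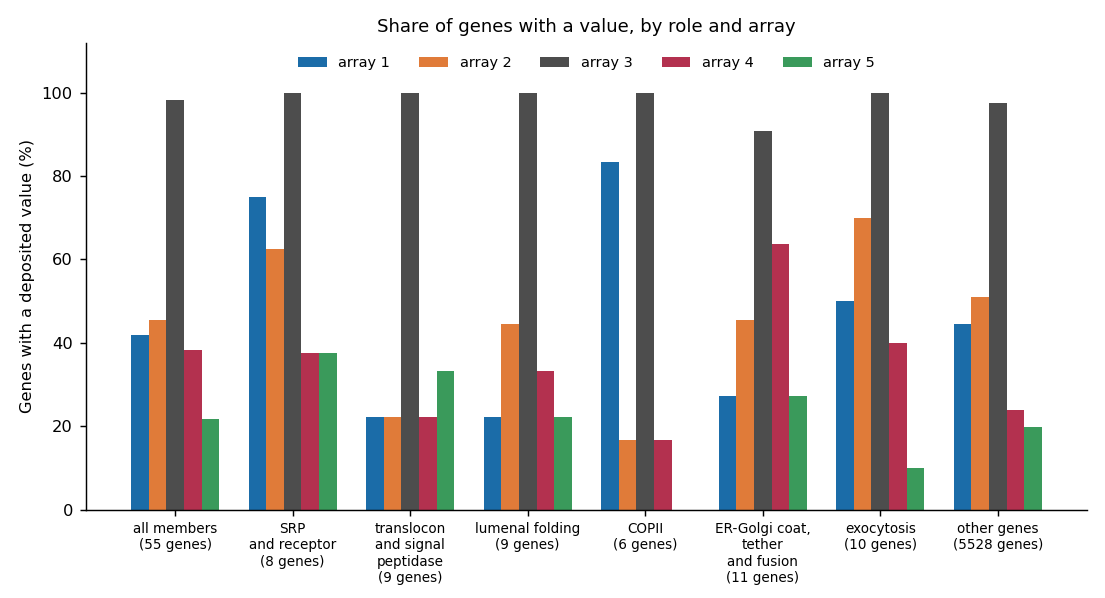
Percentage of genes with a deposited value (y axis) for all secretory pathway members, for 6 roles among them and for other genes, with 1 bar for each of the 5 arrays. Array 3 lies at 90.9% or above in every set, SRP and COPII genes reach 75% and 83.3% on array 1, and no COPII gene had a value on array 5.

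The roles differed in where they were measured. On array 1, 6 of 8 SRP genes (75%) and 5 of 6 genes of the COPII vesicle coat (83.3%) had a value, against 2 of 9 translocon genes (22.2%) and 2 of 9 lumenal folding genes (22.2%). On array 4 the ER to Golgi coat, tether and fusion genes led with 7 of 11 (63.6%), while COPII had 1 of 6 (16.7%). On array 2 the exocytosis genes led with 7 of 10 (70.0%). ER entry and folding genes were measured in 8 of 26 cases on array 5 (30.8%) and vesicle transport genes in 4 of 27 (14.8%). On array 4 the order was the other way round, with 8 of 26 (30.8%) and 12 of 27 (44.4%). On arrays 1 to 3 some members had 2 spots, and so 2 chances of a value, and the others had 1. Those with 2 were the SRP genes SEC65, SRP21 and YKL154W, the exocytosis genes SEC9, SEC10 and SEC15, and SEC14, SEC27 and SEC72. Every lumenal folding gene and COPII gene had 1 spot there. These classes hold 6 to 27 genes, and none of the differences between them was tested.

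Among SRP genes, SRP21, which encodes a small subunit of the particle, was 1 of the 2 members measured on every array. It lay at 0.055, -0.95, -1.01, -1.21 and 1.73 log2 units on arrays 1 to 5. It was thus low on arrays 2, 3 and 4, near the median gene on array 1 and high on array 5. YDR292C encodes the alpha subunit of the SRP receptor, which docks the particle at the ER, and is called the receptor alpha gene below. It lay at 3.07, 0.88, 0.95 and -3.14 on arrays 1 to 4. On array 1, 97.6% of measured genes were lower, while on array 4 only 11% were. Only 1 of its 2 spots had a value on array 4. YKL154W, for the membrane-anchored beta subunit of the receptor, lay at 0.043, -0.18 and -1.04 on arrays 1 to 3, so the receptor pair was on the same side of the median gene on array 1 alone.

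SRP72 and SRP68 encode the largest protein subunits of the particle. SRP72 lay at -0.38, 5.29 and 0.042 on arrays 3 to 5. Its array 4 value came from 1 of 2 spots. SRP68 lay at -0.65, -1.04 and 1.39 on arrays 1, 3 and 5. SEC65, the subunit that helps the signal-binding SRP54 onto the SRP RNA, lay at -0.0066, -0.92 and -0.098 on arrays 1 to 3, below the median gene on each. SRP14 lay at 1.65 on array 2, above 95% of genes, and at 0.050 on array 3. SRP54, the GTPase that binds signal sequences, lay at -0.28 on array 1 and -0.74 on array 3. On array 3, the one array with all 8 SRP genes, 6 lay below the median gene and 2 above it, with a median of -0.56.

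The translocon genes were measured sparsely outside array 3. SEC61, the gene of the pore itself, lay at 1.18 on array 3 and at 5.51 on array 4, above 98.9% of genes, from 1 of 2 spots. SEC62, of the complex for post-translational entry, lay at -0.076, 1.44 and -5.57 on arrays 1, 3 and 4. The last of these was the lowest value of any member on any array, and both of its spots were low, at -6.84 and -4.30. SEC61 and SEC62, which both rest on array 4 for their extreme values, thus lay at opposite ends of that array. On array 3 they lay on the same side.

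SSH1, a relative of SEC61 that forms a second pore, lay at 0.60, -0.73 and -0.10 on arrays 2, 3 and 5. SEC63, the J-domain protein that recruits the chaperone Kar2 to the pore, was low on both arrays that measured it, at -1.65 on array 3 and -0.68 on array 5. SBH1, a small subunit of the Sec61 pore, lay at -1.39 on array 3 and 1.91 on array 5. SEC72, of the post-translational complex, lay at -0.69 on array 1 and -0.82 on array 3. SSS1, the remaining pore subunit, was above the median gene on both arrays that measured it, at 0.26 and 0.75 on arrays 2 and 3. SEC11, the catalytic subunit of signal peptidase, and SEC66 were measured on array 3 alone, at -1.09 and -0.41. Of the 9 translocon genes on array 3, 6 lay below the median gene and 3 above it, with a median of -0.73.

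CPR5, an ER cyclophilin that speeds proline isomerisation, gave the most even set of values of the 12 members measured on all of arrays 1 to 3, within 0.060 log2 units with the deposited signs, and lay far from them on array 4. It lay at 1.62, 1.56 and 1.61 on arrays 1 to 3 and at -5.46 on array 4. With the sign of array 3 turned, its range over arrays 1 to 3 was 3.24 log2 units, and 8 of the 12 members had a smaller one. The share of measured genes below it was 92.8%, 94.5%, 97.5% and 1.66% on these arrays. Both spots of array 4 were low, at -4.67 and -6.26. EUG1, a disulfide isomerase related to Pdi1, lay at -0.30, 0.80, 1.63 and -0.46 on arrays 2 to 5, high on the arrays with zzYra1 in channel 1 and low on the other arrays that measured it.

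PDI1, the essential disulfide isomerase, was the lowest member on array 2, at -1.88, where only 0.386% of genes were lower, and lay at -0.40 on array 3. KAR2, the ER Hsp70 chaperone, was also low on array 2, at -1.11, and lay at 0.59 on array 3. CNE1, the yeast calnexin, lay at -0.67 on array 3 and 2.11 on array 5. Of the 4 folding genes measured on array 2, CPR5 alone was above the median gene. ERO1, which oxidises Pdi1, lay at 0.11 and -0.74 on arrays 1 and 3. SIL1, a nucleotide exchange factor of Kar2, lay at 0.58 on array 3 and 0.025 on array 4, the latter from 1 of 2 spots. LHS1, an Hsp70-like partner of Kar2, and the disulfide isomerase gene MPD1 were measured on array 3 alone, at 0.60 and -0.0063.

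**Figure D2:**
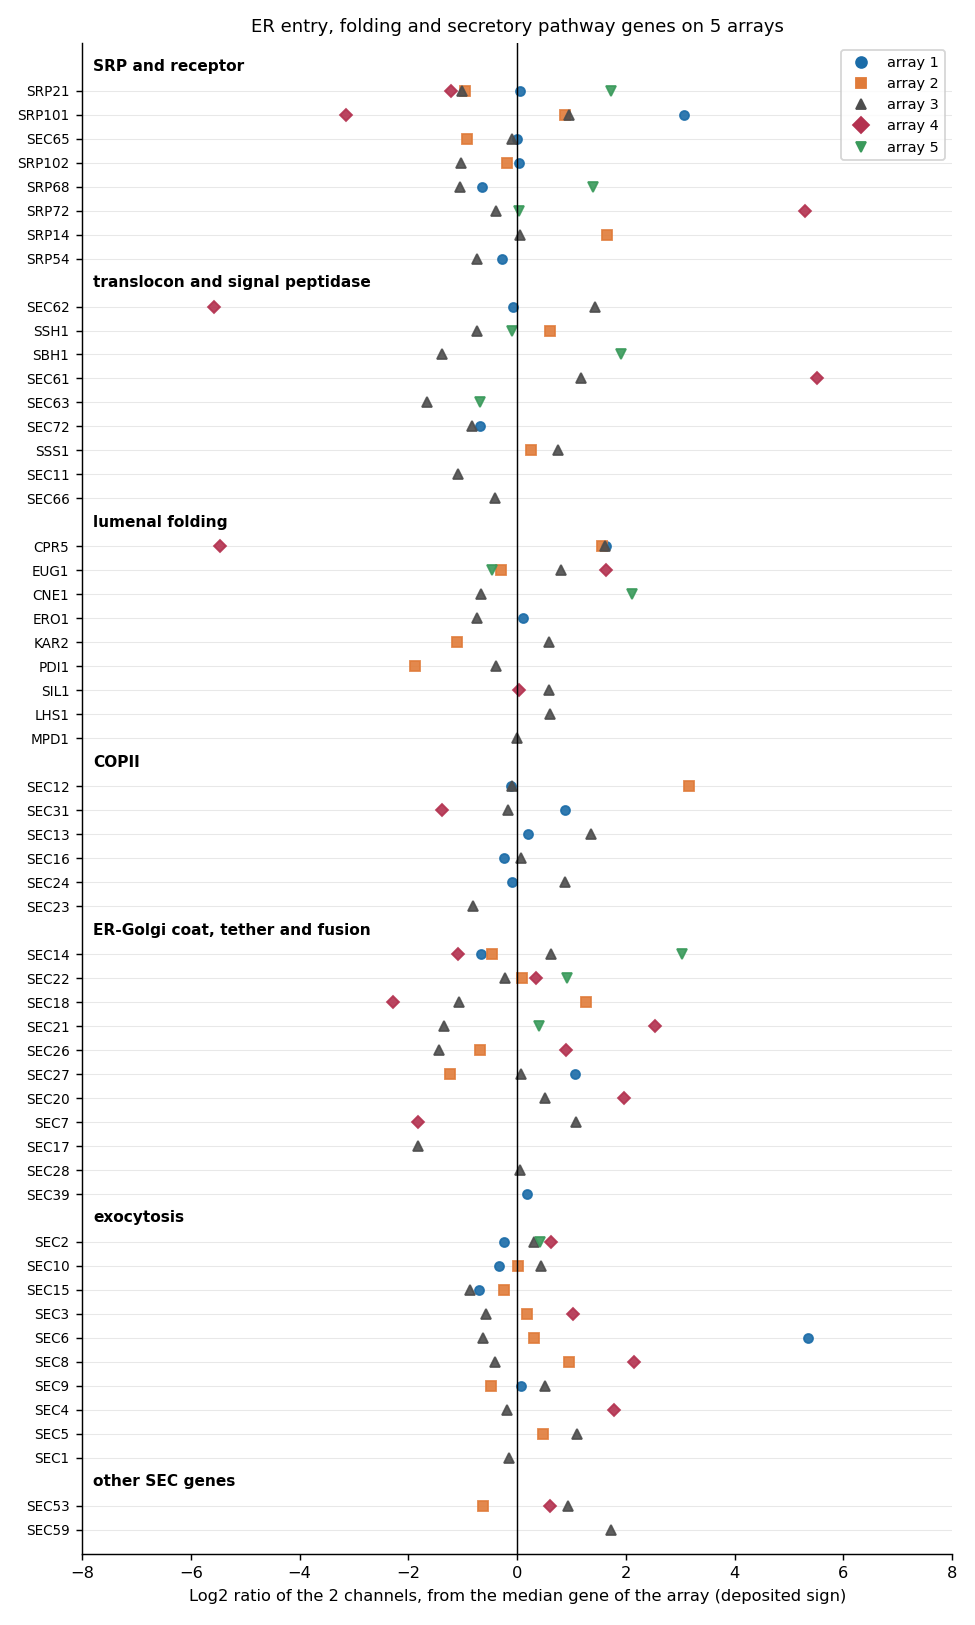
Log2 ratio from the median gene of the array, with the deposited sign (x axis), for each of the 55 members (rows, grouped by role). Each symbol is 1 array, and an absent symbol means no deposited value; array 4 holds both the highest (5.51, SEC61) and the lowest (-5.57, SEC62) value.

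Among the genes of COPII, the coat of vesicles that leave the ER, SEC12 stood out on array 2. SEC12 encodes the exchange factor that starts coat assembly. It lay at -0.11, 3.16 and -0.092 on arrays 1 to 3, and 99.2% of genes on array 2 were lower. SEC31, of the outer coat, lay at 0.88, -0.17 and -1.38 on arrays 1, 3 and 4. Its partner SEC13 lay at 0.20 and 1.35 on arrays 1 and 3, so the outer coat pair was on the same side on array 1 and on opposite sides on array 3. SEC16, the scaffold of ER exit sites, and SEC24, which picks cargo, were near the median gene on array 1 at -0.25 and -0.10. On array 3 they lay at 0.075 and 0.88, and SEC23, the partner of Sec24, lay at -0.81 there.

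Of the genes grouped here as ER to Golgi coat, tether and fusion genes, SEC14 was the other member measured on all 5 arrays. SEC14 encodes a phosphatidylinositol transfer protein of the Golgi. It lay at -0.67, -0.46, 0.62, -1.09 and 3.03 on arrays 1 to 5, which made it the highest member on array 5, above 99.4% of genes, and low on 3 others. SEC22, a membrane fusion protein (SNARE) of ER and Golgi vesicles, lay at 0.090, -0.22, 0.35 and 0.92 on arrays 2 to 5. Its range of 1.13 log2 units was among the narrower ones of the members with 4 or more values, which ran from 0.862 for SEC2 to 7.09 for CPR5.

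SEC18, the ATPase that takes SNAREs apart, lay at 1.27, -1.07 and -2.27 on arrays 2 to 4. Its cofactor SEC17 was measured on array 3 alone and was the lowest member there, at -1.82. The subunits of the COPI coat, which returns vesicles to the ER, were not on one side. SEC21 lay at -1.34, 2.54 and 0.41 on arrays 3 to 5, SEC26 at -0.69, -1.44 and 0.90 on arrays 2 to 4, and SEC27 at 1.06, -1.23 and 0.062 on arrays 1 to 3. SEC28, the smallest COPI subunit named here, lay at 0.057 on array 3. SEC21 and SEC26 were both below the median gene on array 3 and both above it on array 4. SEC7, the exchange factor of the Arf GTPases at the Golgi, lay at 1.09 and -1.83 on the same arrays, and the SNARE gene SEC20 at 0.51 and 1.97. SEC39 lay at 0.18 on array 1.

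Exocytosis genes serve the last step, in which vesicles are tethered to and fuse with the plasma membrane. SEC2, the exchange factor for the GTPase Sec4, lay at -0.24, 0.31, 0.62 and 0.42 on arrays 1, 3, 4 and 5, within 0.862 log2 units. SEC4 lay at -0.18 on array 3 and 1.78 on array 4. The exocyst tether has 6 subunits among the members, and SEC6 gave the largest value of array 1 among all members, at 5.36, above 98.7% of genes. It lay at 0.31 and -0.62 on arrays 2 and 3.

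The other exocyst genes had no value as far from the median gene as that of SEC6 on array 1. On arrays 2 and 3 some of them lay further from the median gene than SEC6 did. SEC15 was below the median gene on all 3 arrays that measured it, at -0.71, -0.25 and -0.86 on arrays 1 to 3. SEC10 lay at -0.33, 0.012 and 0.45 on the same arrays. SEC3 and SEC8 had the same order over arrays 2 to 4, with SEC3 at 0.18, -0.57 and 1.02 and SEC8 at 0.96, -0.41 and 2.16. The array 4 value of SEC8 came from 1 of 2 spots. SEC5 lay at 0.48 and 1.10 on arrays 2 and 3. SEC9, the plasma membrane SNARE, lay at 0.074, -0.48 and 0.50 on arrays 1 to 3, and SEC1, which regulates SNARE assembly, at -0.15 on array 3. All 4 exocytosis genes measured on array 4 were above the median gene, with a median of 1.4, and of the 10 on array 3, 4 were above it and 6 below.

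The remaining SEC genes, which belong to protein glycosylation, were SEC53 and SEC59. SEC53, a phosphomannomutase that makes the sugar precursor, lay at -0.62, 0.94 and 0.60 on arrays 2 to 4. SEC59, a dolichol kinase, was the highest member on array 3, at 1.72, above 98.2% of genes, and was not measured elsewhere.

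Few members kept one side of the median gene. Of the 26 with 3 or more values, 2 did so with the deposited signs (7.69%), SEC15 and SEC65, both low on average, although the spots of SEC65 lay on both sides of the median gene on arrays 1 and 3. Among all genes with 3 or more values the share was 18.7%. With the signs of arrays 3 and 4 turned, the count was 5 of 26 (19.2%), beside 21.1% of all such genes. These were SEC6, SEC18 and SEC31, high throughout, and EUG1 and SEC53, low throughout. Both shares of the members were at or below those of all genes. Values further than 1 log2 unit from the median gene made up 4 of 23 on array 1 (17.4%, beside 18.8% of all genes), 7 of 25 on array 2 (28.0%, beside 20.9%) and 17 of 54 on array 3 (31.5%, beside 25.8%). On array 4 they made up 16 of 21 (76.2%, beside 67.8% of all genes), and on array 5, 5 of 12 (41.7%, beside 36.2%).

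Repeated spots of a gene show how far a single value can be trusted. On arrays 1 to 3, 9 members had 2 spots, between 1514 and 2763 spots apart in spot order. On array 3, 8 of these pairs were measured, and the median gap was 1.30 log2 units, against 1.03 for other genes. The receptor beta gene YKL154W had spots at -2.07 and -0.012 there, SEC14 at 1.59 and -0.34, and SEC72 at 0.083 and -1.73, so SEC14 and SEC72 had spots on both sides of the median gene. SEC10, SEC27 and SEC65 did too, which made 5 of the 8 pairs. On array 1 the median gap was 0.650 over 6 pairs, against 0.865 for other genes. On array 2 only SEC10 had both spots measured, at -0.57 and 0.60, on either side of the median gene.

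On arrays 4 and 5 every member had 2 adjacent spots. Both were measured for 15 of the 21 members with a value on array 4, with a median gap of 0.20 log2 units against 0.455 for other genes. Gaps were largest for SEC62 (2.54) and CPR5 (1.59), the 2 lowest members of that array. On array 5 both spots were measured for 8 of 12 members, with a median gap of 0.19 against 0.278 for other genes and the largest gap for CNE1, at 1.53 and 2.70. Spots adjacent in spot order are taken here to share their place on the slide, and spots far apart in that order are not. Slide coordinates were not used. The gaps of the 2 designs therefore may not measure the same error.

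**Figure D3:**
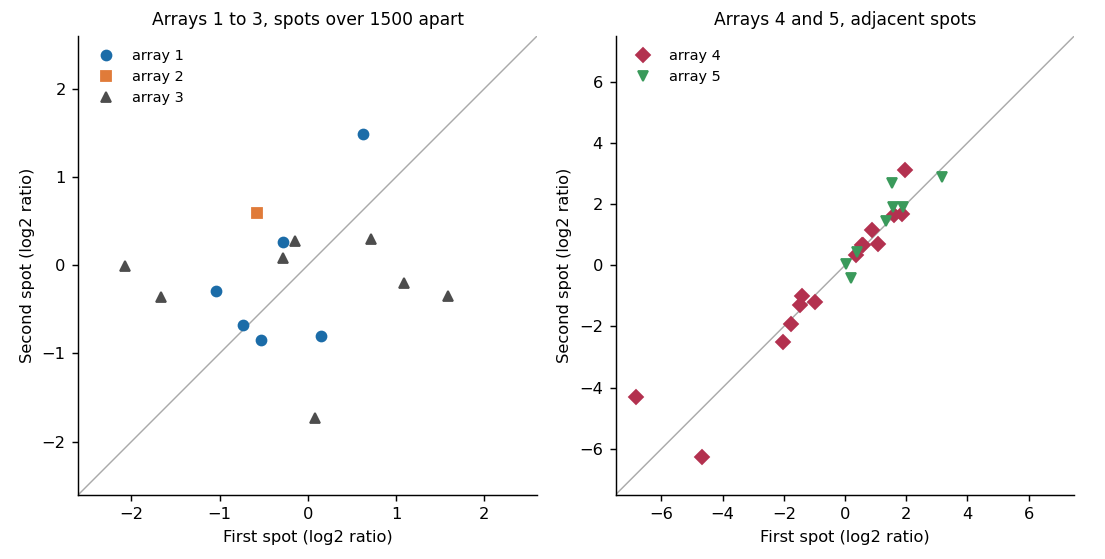
Log2 ratio, from the median gene of the array, of the first (x axis) and second (y axis) spot of a member with 2 measured spots, on arrays 1 to 3 (left) and arrays 4 and 5 (right); the line marks equality. Spots far apart scatter widely, with a gap of up to 2.06 on array 3, while adjacent spots lie closer to the line, with the largest gaps for SEC62 (2.54) and CPR5 (1.59) at the lower left.

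ER entry and folding genes and vesicle transport genes overlapped on every array, and the difference of their medians was not of one sign. The median of ER entry and folding genes was 0.018, -0.18, -0.39, -0.59 and 0.72 log2 units on arrays 1 to 5. The median of vesicle transport genes was -0.10, 0.090, -0.12, 0.76 and 0.67. ER entry and folding genes were thus 0.12 and 0.048 above vesicle transport genes on arrays 1 and 5. On arrays 2, 3 and 4 the difference was -0.27, -0.27 and -1.35. With the signs of arrays 3 and 4 turned, their differences were 0.27 and 1.35. The sign also depended on the summary: with means in place of medians the deposited signs gave -0.091, -0.29, -0.037, -0.76 and -0.45 on arrays 1 to 5, below 0 on each. None of these differences was tested.

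Array 4 had the largest of these differences and also the largest spread. It rested on 8 and 12 genes, and the 8 ER entry and folding genes had a standard deviation of 4.34 log2 units, against 1.66 for vesicle transport genes and 2.51 for all genes. SEC61 and SRP72 lay above 5 and SEC62 and CPR5 below -5 there, while no vesicle transport gene lay outside -2.27 to 2.54. With SEC53 added to the ER entry and folding genes the difference on array 4 was -0.73. Over all members the medians were -0.0066, 0.012, -0.12, 0.60 and 0.67 on arrays 1 to 5, beside a median gene at 0. On array 5, 9 of 12 members lay above the median gene, and on array 4, 13 of 21. When each spot was taken relative to nearby spots, the median of array 5 was 0.060, over the 5 members that kept a value.

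**Figure D4:**
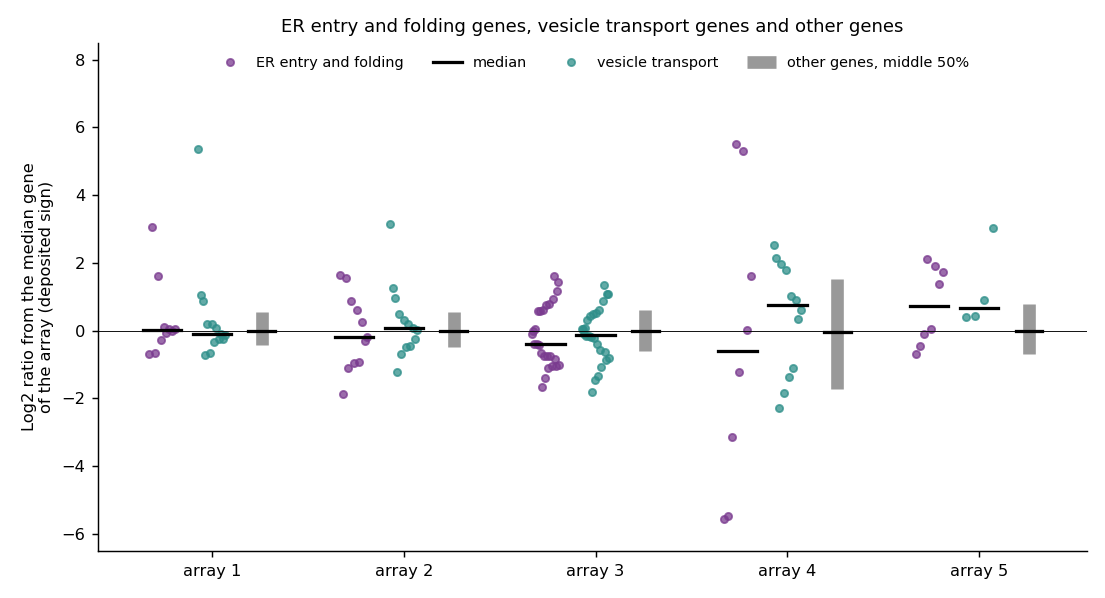
Log2 ratio from the median gene of the array, with the deposited sign (y axis), for ER entry and folding genes and vesicle transport genes on each array (points, 1 per gene; black bars, medians), beside the middle 50% of other genes (grey) and their median. The groups overlap on all 5 arrays, and the 4 most distant members on array 4 all belong to ER entry and folding.

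None of the 7 members that could be tested across all arrays passed limma's test, while 48 had too few values for it. Genes with a value on at least 4 arrays were fitted in limma with the orientation as a term, under both readings of the direction. The channel reading supposes that one channel was always the numerator, so arrays 3 and 4 have their signs turned. In the other reading the deposited signs are taken as already turned. Of 725 genes tested, 7 of them members, 0% passed an adjusted p of 0.05 in the channel reading, and again 0% when the deposited signs were kept. At an unadjusted p under 0.05 the shares of all genes were 2.62% and 3.45%, and 0 of the 7 members reached it in either reading.

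The receptor alpha gene YDR292C came closest, at 1.54 ± 0.75 log2 units in the channel reading (SE; limma, unadjusted p = 0.0739, adjusted p = 0.905). Its turned values were positive on 3 of 4 arrays. Leaving out array 4 or array 1 moved the fitted value to 0.52 and 0.99. Leaving out array 2 or array 3 moved it to 2.085 and 2.56. CPR5 lay at 1.76 ± 1.00 in the channel reading (95% interval -0.52 to 4.04, limma adjusted p = 0.905) and at -0.16 in the other reading. EUG1 lay at -0.80 ± 0.51 in the channel reading, with all 4 turned values below 0, and the same limma adjusted p of 0.905. SRP21 lay at 0.70, SEC14 at 0.44, SEC22 at 0.22 and SEC2 at -0.19 in the channel reading. In the other reading the 7 members lay between -0.42 (SRP21) and 0.44 (receptor alpha), with limma adjusted p-values of 0.906 or more. The median half-width of the 95% interval over these members was 1.17 log2 units, without adjustment for the number of genes tested. Differences smaller than that were not detectable for a typical member. Passing the adjusted threshold takes a larger difference, and how much larger was not worked out.

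**Figure D5:**
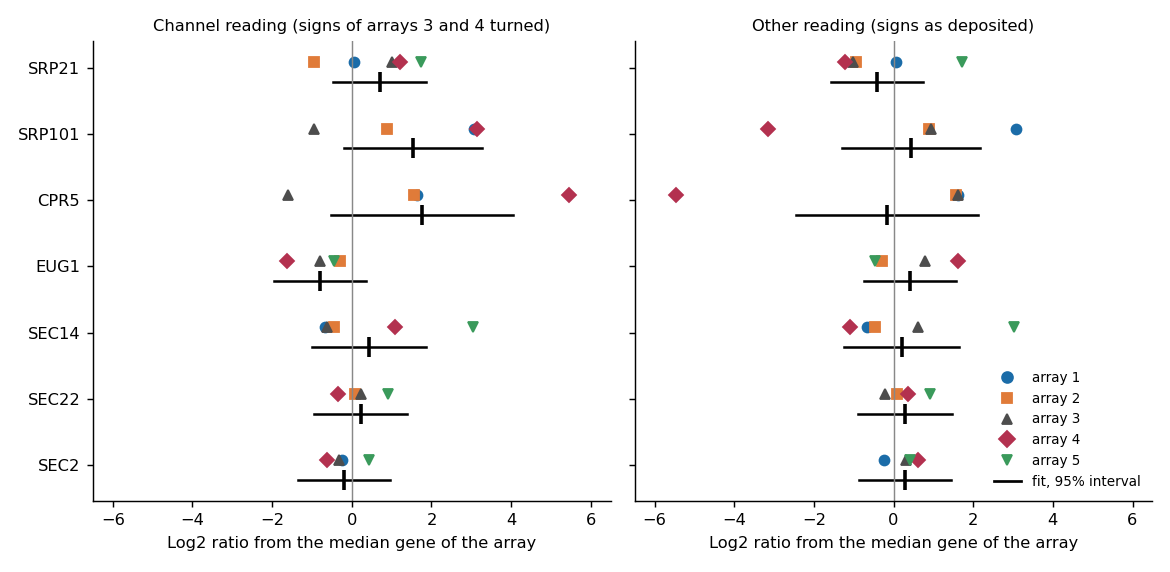
Log2 ratio from the median gene of the array (x axis) for the 7 members with a value on at least 4 arrays (rows), with the signs of arrays 3 and 4 turned (left) and as deposited (right); symbols are arrays, bars the fitted value with its 95% interval. All 14 intervals include 0, the second from the top is the receptor alpha gene YDR292C, and CPR5 has an array 4 value far out in both panels.

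CPR5 and the receptor alpha gene YDR292C were the members whose call depended on 1 array. Without array 3 the genes with at least 3 of the other 4 values were tested, and CPR5 (3.53, limma adjusted p = 5.6e-05) and YDR292C (2.56, limma adjusted p = 0.0037) passed in the channel reading, 2 of 7 members, beside 11.3% of 602 genes. In the other reading CPR5 alone passed (-1.93, limma adjusted p = 0.036), beside 13.3% of all genes. Array 4 is then alone with zzYra1 in channel 1, and its own variation cannot be estimated. When the arrays were also scaled to equal spread (chosen after seeing the data), no member call remained in either reading. The fitted values in the channel reading were then 1.94 for CPR5 and 1.77 for YDR292C. Without array 4, CPR5 lay at -0.0095 in the channel reading and at 1.60 in the other reading (limma unadjusted p = 0.0079, adjusted p = 0.80).

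The spots of CPR5 and the receptor alpha gene YDR292C lay 10 apart in spot order on the design of arrays 1 to 3. On array 1 few spots near them were measured: 3 of 20 around CPR5 and 5 of 20 around the receptor alpha gene. Each gene was a neighbour of the other there. The neighbours' medians, at 3.07 and 1.62, were the values of the receptor alpha gene and of CPR5 themselves. On array 3 all 20 were measured around each, and the neighbours' medians, at 0.61 and 0.62, lay above the median gene too. On array 4, 0 of 20 were measured around CPR5 and 2 of 20 around the receptor alpha gene. After subtraction of the neighbours' median, CPR5 stood at 1.23 on array 2 and 1.01 on array 3, and the receptor alpha gene at 1.45, 0.35 and 0.33 on arrays 1 to 3. The 1.45 on array 1 is thus only the distance of the receptor alpha gene from CPR5. SRP72 had neighbours with a median of 3.48 on array 4 and stood 1.82 above them. SEC61, at 5.51 on array 4, had 3 of 20 neighbours measured, too few for the subtraction. Their median was 4.695, so the neighbours that were measured were high as well. SEC62 had neighbours near the median gene on that array, at 0.60 and 0.63, and stood at -7.43 and -4.93 against them. SIL1, at 0.025 on array 4, had 11 of 20 neighbours measured, with a median of 4.94, and stood at -4.92 against them. SEC6, at 5.36 on array 1, stood 5.00 above its neighbours, and SEC12, at 3.16 on array 2, stood 3.06 above. The part of slide position in these values was not tested further.

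The reference gene table placed the 55 genes on 15 chromosomes, with 11 on chromosome IV. SEC1 and SEC5 lay closest, with 1 gene between them, and no other pair was within 2 genes of each other. Further genes of the same pathway gave no call either. Of 21 more genes of ER entry, glycosylation and folding, such as those of the oligosaccharyltransferase, 1 had enough values for the fit. Of 22 more genes of vesicle transport, 4 had enough. None of the 5 passed limma's adjusted or unadjusted p of 0.05 in either reading. On array 4, where the members were measured in 38.2% of cases, these lists were measured in 3 of 20 (15.0%) and 4 of 22 (18.2%) cases. On array 1 they had a value in 15 of 21 (71.4%) and 13 of 22 (59.1%) cases.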

How the data were processed

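The deposited values are log10 ratios of the 2 channels, 1 column per array in 2 tables; the authors' labels do not state the scale. It was settled from the values: of 400 drawn per array, between 23.25% and 94.25% became ratios of whole numbers (denominator up to 3000) as log10, and at most 1.25% as log2 or natural log. The sources used here do not give the scanner, dyes, background correction, ratio numerator or reason for missing values. Gene symbols came from the platform annotation; 6695 of 7680 and 11138 of 12800 spots had 1 symbol, none had several, and the others are unnamed here. Identifiers matched the R64 gene table for 5578 of 5583 and 5534 of 5539 genes. Lines that shared a spot number were merged, and lines whose identifier is no number were dropped. Of the value columns, 0 were unused.

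Values were multiplied by 3.32 and centred on the array's median gene, without loess or quantile normalisation. Genes with at least 4 values were fitted in limma 3.58.1 (R 4.3.3), with Benjamini-Hochberg adjustment over all 725 genes tested and a threshold of 0.05. The fit was run on simulated independent normal values with known effects. That was a check of the code and does not tell which effects could be found on these arrays. The neighbour step subtracted the median of the spots of other genes within 10 spots, where at least 5 were measured. Neighbours were taken from the spot order, without slide coordinates. The members, lists, roles and tests were chosen with earlier results of these data known. Genes named with every value had at least 3 values or were among the 2 highest or 2 lowest members of an array; the others were added to complete their role. Alternatives were leaving out each array, other filters, no centring, equal spread, spot medians, each table and orientation alone, and arrays 4 and 5 averaged. The SRP receptor genes are given by locus tag. No sequences are shown.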

Additional observations from a re-analysis of the deposited data

Results flagged for a closer look

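Among 24 sets of 4 or 5 array values examined, 5 had a single array that stood off. The rule would flag about 1 in 20, or 1.2 sets, if values were independent and of equal spread. These sets shared genes and arrays, and the spread over all genes was widest on array 4, at 2.51 log2 units. The count of 5 therefore does not measure an excess. CPR5 lay at -5.46 on array 4 with the deposited signs, while its other values lay within 1.56 to 1.62; with the signs of arrays 3 and 4 turned, no array stood off. The standard deviation of all members was 2.88 log2 units on array 4, and that of ER entry and folding members 4.34, beside 2.51 over all genes of that array. The difference between the medians of ER entry and folding and of vesicle transport members was -1.35 on array 4. All 26 ER entry and folding members had a value on array 3 (100%), against 30.8% to 42.3% on the other arrays; array 3 measured 97.6% of all genes.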

How the results depend on the processing

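Members past the threshold were 0 under every alternative except without array 3 at the original spread. Genes outside the members passed there too, with the shares of all genes given above, and array 4 was alone in its orientation. The medians of all members moved with the mean in their place on array 1 (0.37) and array 4 (0.12), and against slide neighbours on array 5 (0.060). The difference between ER entry and folding and vesicle transport turned to -0.091 on array 1 and -0.45 on array 5 with means, and became -0.73 on array 4 with SEC53 added, and -2.79 and -1.51 on arrays 4 and 5 against slide neighbours, over 4 and 9 and over 3 and 2 genes. Signs of single genes that passed no test in these settings turned as follows. In the other reading CPR5 lay at 0.86 with equal spread, 0.64 without centring and 1.60 on arrays 1 to 3 alone, SEC14 at -0.17 on arrays 1 to 3 alone, and SRP21 at 0.52 without centring and 0.26 on arrays 4 and 5 alone. In the channel reading SEC14 lay at -0.58 on arrays 1 to 3 alone, SEC2 at 0.45 without centring, and SEC22 at -0.10 without centring and -0.066 on arrays 3 and 4 alone. Leaving out 1 array gave CPR5 -0.0095 to 3.53 in the channel reading and -1.93 to 1.60 in the other, SEC14 -0.16 to 0.86 and -0.40 to 0.63, and the receptor alpha gene YDR292C -0.58 to 1.46 in the other. Without array 3 and with equal spread, chosen after seeing the data, SEC14 lay at -0.0043 in the other reading. Where 1 array of an orientation remains, it is taken to vary like the others. The causes were not tested. No paired analysis was possible because there is 1 group of arrays. Missing intensities limit what an absent value means.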
